A study of Solanum tuberosum with 10 samples.

Results

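RBCS-2C encodes a small subunit of Rubisco and was 1 gene among the 40430 features of the deposited count table, 39021 of which were gene models. It was taken as the row named RBCS-2C whose 2 identifier columns held the same entry (PGSC0003DMG400012666). The table places it on the plus strand of chromosome 2 from 41192215 to 41193945, a span of 1731 bp, on a build that is not named in the sources used here. RNA was sequenced from node explants with 1 leaf, cut from in vitro plantlets of potato (Solanum tuberosum, cultivar Desirée). The "Ultrasonicated" arm was exposed to ultrasound in liquid Murashige and Skoog medium, the "Control" arm was not, and both then grew on medium without growth regulators. Whether the control explants were also held in liquid is not stated, so immersion and ultrasound cannot be told apart. Sampling took place directly after treatment (0 h), 24 h and 48 h later, and after 1 week and 4 weeks, and each of the 10 libraries was a pool of 3 biological replicates. The tissue label reads stem up to 24 h and stem and plantlet from 48 h on, so time and tissue sampled cannot be told apart between those periods.

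Rubisco fixes CO2 in the chloroplast and is built from large subunits encoded in the plastid genome and small subunits encoded in the nucleus. The small subunits come from a family of closely similar genes, are made in the cytosol and are imported into the chloroplast. Their transcripts are among the most abundant in green leaf tissue and are known to respond to light and to sugars.

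Total counts per library ran from 122786170 to 161153911. The factors of the trimmed mean of M values (TMM), which scale each library for composition, ran from 0.688 in the ultrasonicated library at 0 h to 1.14. Features named as rRNA held 2.46% of the counts of the control library at 24 h and between 0.0357% and 0.457% of the others. RBCS-2C had between 24183 and 236603 counts per library.

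RBCS-2C was high at 0 h, low at 24 h and 48 h, and high again at 1 week and 4 weeks. Levels are in CPM, which sets a count against the TMM-adjusted total of its library. Control explants had 2063 CPM at 0 h, 202 CPM at 24 h, 273 CPM at 48 h, 962 CPM at 1 week and 1311 CPM at 4 weeks. Ultrasonicated explants had 688 CPM at 0 h, 357 CPM at 24 h, 239.7 CPM at 48 h, 1661 CPM at 1 week and 683 CPM at 4 weeks. The 4 libraries at 24 h and 48 h lay between 202 and 357 CPM, and the 6 others lay between 683 and 2063 CPM, so these sets did not overlap. Over all 24421 features tested, 3.32% were lower in those same 4 libraries than in the 6 others, and 4.01% were higher. In tissue sampled in bulk, fewer green cells and less of this transcript per cell cannot be told apart.

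**Figure D1:**
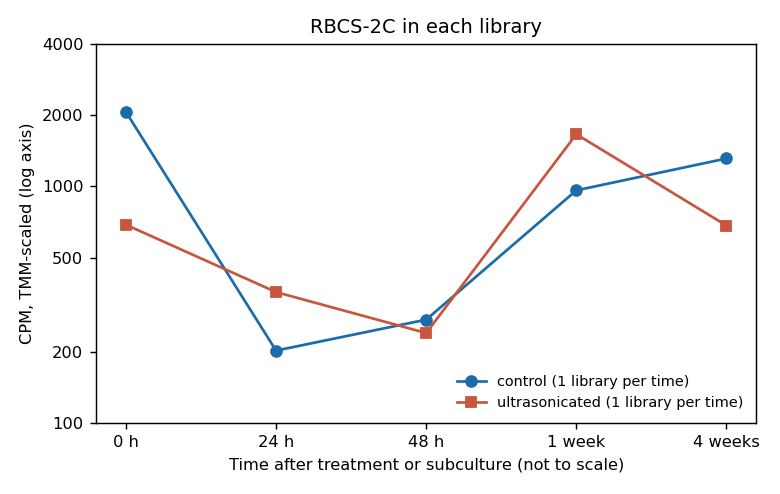
RBCS-2C in the 10 libraries, as TMM-scaled CPM on a log axis against sampling time, with 1 point per library and 1 line per arm. Both arms are lowest at 24 h or 48 h (202 CPM in control, 239.7 CPM in ultrasonicated explants), and the arms change order from each sampling time to the next.

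The gene took a visible part of the libraries. Its share of all counts was 0.183% in control explants at 0 h (95% exact interval 0.182 to 0.183) and 0.0197% at 24 h (0.0194 to 0.0199). In ultrasonicated explants the share was 0.0473% at 0 h (0.047 to 0.0477), 0.0259% at 48 h (0.0256 to 0.0262) and 0.168% at 1 week (0.167 to 0.168). These intervals cover counting error only. Per kb of the span in the table, introns included, RBCS-2C ranked 17 among the 40430 features in control explants at 0 h and 537 at 24 h. In ultrasonicated explants it ranked 240 at 0 h, 430 at 48 h and 32 at 1 week.

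The spread over the series was wider than for most features. The highest library stood 10.2-fold above the lowest, against a median of 3.38-fold over the 15566 tested features with a mean of at least 5 CPM and a count in every library. Of all 15617 with that mean, 16.8% had a wider spread, with those at 0 in a library counted as wider. Within the arms, the highest library was 10.2-fold above the lowest in control explants (0 h over 24 h) and 6.93-fold in ultrasonicated explants (1 week over 48 h). The arms thus had their peak and their trough at different times.

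Whether the gene changed with time was tested with edgeR's quasi-likelihood F-test on arm and time, in which the 2 arms stand in for replicates of a time and 4 residual degrees of freedom remain. The gene's own spread in this test comes from how the gap between the arms varies over the times, not from replicate libraries or plants. A change of the ultrasound effect with time would therefore count as spread. The quasi-likelihood fit also draws each feature's spread toward the trend over all features tested. The arms of RBCS-2C differed more than in most features with a mean of at least 5 CPM (root mean square log2 ratio 0.97, median 0.45). Its standard errors and p-values are therefore likely smaller than its own spread alone would give. RBCS-2C varied over the 5 times (F = 7.45, edgeR Benjamini-Hochberg adjusted p = 0.0369), as did 28% of all features. The call did not hold with both 24 h libraries left out (edgeR adjusted p = 0.0674) or both 48 h libraries (0.128), nor without any 1 of these libraries: control at 24 h (0.0769), 48 h (0.123) or 4 weeks (0.0574), and ultrasonicated at 48 h (0.115), 1 week (0.0728) or 4 weeks (0.0628).

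The fall after cutting came first. The mean of the arms went from 1376 CPM at 0 h to 279.5 CPM at 24 h and 256 CPM at 48 h. The log2 change was -2.21 at 24 h (SE 0.612, edgeR adjusted p = 0.0406) and -2.38 at 48 h (SE 0.605, edgeR adjusted p = 0.0301), and both arms fell each time. In the same comparisons, 19.9% and 20.5% of all features were called. The fitted change of 8.6% of features lay lower still at 24 h, and that of 6.33% at 48 h. These comparisons share their 0 h libraries.

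The arms contributed unequally to that fall. From 0 h to 24 h control explants fell 10.2-fold, and 1.15% of features had a lower ratio in that step. Ultrasonicated explants fell 1.93-fold over the same step, and 21.4% of features had a lower ratio. From 24 h to 48 h the control level went up, to 1.35 times (95% exact interval 1.33 to 1.37), and the ultrasonicated level went down, to 0.671 times (0.662 to 0.681). Each of these single steps compares 1 library with 1 other, without replicates.

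The size of the fall rested on the 0 h libraries, which differed most between arms. Without the control library at 0 h the log2 change was -1.25 at 24 h (edgeR adjusted p = 0.144) and -1.35 at 48 h (0.135), and neither passed. Without the ultrasonicated library at 0 h it was -3.02 (edgeR adjusted p = 0.0197) and -3.12 (0.0145). The call at 24 h also ended without the control library at 24 h (-1.55, edgeR adjusted p = 0.237) or 48 h (-2.2, 0.0745), without the ultrasonicated library at 24 h (-2.93, 0.0704), 48 h (-2.2, 0.0756) or 4 weeks (-2.28, 0.0513), and without the pair at 48 h (0.075) or 4 weeks (0.0517). The call at 48 h ended without the control library at 48 h (-2.36, edgeR adjusted p = 0.176) or the ultrasonicated one (-2.33, 0.167). With total counts as the scaling, under which the median feature moves to 0.35 at 24 h and 0.53 at 48 h, the changes were -1.91 (edgeR adjusted p = 0.0648) and -1.95 (0.0534).

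Between 24 h and 48 h the mean of the arms moved little. The log2 change was -0.16 (SE 0.574, edgeR adjusted p = 0.927), and the arms went in opposite directions. In that comparison edgeR called 0 features, with 3269 at an unadjusted p under 0.05, DESeq2 called 757 and limma-voom 0.

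The level was higher again at 1 week. Against 48 h the log2 difference was 2.39 (SE 0.603, unadjusted p = 0.0043), with 1311 against 256 CPM, a higher value in both arms. It did not pass after adjustment (edgeR adjusted p = 0.107), in a comparison where 1.29% of features were called. Of all features, 97.9% had a lower log2 difference in it. Against 24 h the difference was 2.23 (SE 0.596, edgeR adjusted p = 0.0631, with 7.76% of features called). That against 24 h passed without the control library at 0 h (2.23, edgeR adjusted p = 0.0295), without the ultrasonicated one (2.19, 0.0294), without both (2.22, 0.0286) and with limma-voom (2.23, adjusted p = 0.0419). DESeq2 called both, with adjusted p = 0.00103 against 48 h and 0.00131 against 24 h.

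The step from 48 h to 1 week was large in each arm. Control explants went from 273 to 962 CPM, 3.52-fold (95% exact interval 3.49 to 3.56), and 97.8% of features had a lower ratio. Ultrasonicated explants went from 239.7 to 1661 CPM, 6.93-fold (6.85 to 7.01), and 99.6% of features had a lower ratio. Both values at 1 week lay above all 4 values at 24 h and 48 h.

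At 4 weeks the mean of the arms was 997 CPM. Against 24 h the log2 difference was 1.77 (SE 0.597, edgeR adjusted p = 0.0861, with 13.8% of features called) and against 48 h it was 1.93 (SE 0.592, adjusted p = 0.0831, with 8.43% called), and neither passed. Both passed in edgeR without both 0 h libraries (1.86, adjusted p = 0.0356, and 1.94, 0.0372), and with DESeq2 (1.75, adjusted p = 0.0118, and 1.91, 0.00715). Neither passed without the pair at 1 week (1.69, edgeR adjusted p = 0.0938, and 1.9, 0.0864). The 0 h libraries are not part of either difference. With a library or a pair left out, the differences ran from 1.14 to 2.52 against 24 h and from 1.42 to 2.32 against 48 h. From 1 week to 4 weeks control explants went up 1.36-fold (95% exact interval 1.35 to 1.37), while ultrasonicated explants went down to 0.411 times (0.408 to 0.414).

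The 5 times thus ordered, by the mean of the arms, as 48 h, 24 h, 4 weeks, 1 week and 0 h. No neighbours in that order differed by the test: 24 h against 48 h is given above, 4 weeks against 24 h gave adjusted p = 0.0861, 4 weeks against 1 week a log2 difference of -0.46 (SE 0.582, edgeR adjusted p = 0.675, with 3.56% of features called) and 1 week against 0 h one of 0.01 (SE 0.594, adjusted p = 0.99, with 24.7% called). The order of 1 week and 0 h depends on the kind of mean, since the geometric mean was 1264 CPM at 1 week and 1191 CPM at 0 h. Between 4 weeks and 0 h the log2 difference was -0.44 (SE 0.572, edgeR adjusted p = 0.672, with 11.7% of features called). Of the 10 pairs of times, the 2 that passed were 24 h and 48 h against 0 h. A p that misses the threshold does not show that times were alike, and the standard errors ran from 0.572 to 0.612 log2 units.

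**Figure D2:**
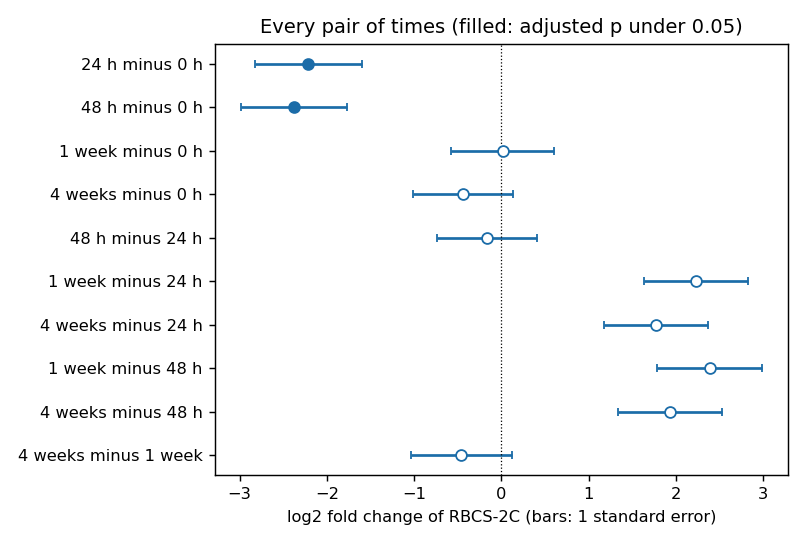
Log2 fold change of RBCS-2C for every pair of times, later minus earlier, from the edgeR fit on arm and time, with bars of 1 standard error and filled points where the adjusted p was under 0.05. The 4 comparisons of 1 week or 4 weeks with 24 h or 48 h lie between 1.77 and 2.39 and did not pass, while the falls of -2.21 and -2.38 did.

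The second question was how the arms differed in RBCS-2C. The sign of the difference between single libraries changed between times, and no single time could be tested. At 0 h ultrasonicated explants had 688 CPM against 2063 CPM in control, 0.333 times (95% exact interval 0.331 to 0.336), the 1 time at which the interval lay wholly beyond 2-fold. That held for 11.2% of features on the lower side. At 24 h the ratio was 1.77 (1.74 to 1.8), on 357 against 202 CPM. At 48 h it was 0.878 (0.866 to 0.89), on 239.7 against 273 CPM, the smallest gap of the 5 times.

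At 1 week the ultrasonicated level was again the higher, 1.73 times that of control (1.72 to 1.74), on 1661 against 962 CPM. At 4 weeks it was the lower, 0.521 times (0.517 to 0.524), on 683 against 1311 CPM. So ultrasonicated explants had less at 0 h, 48 h and 4 weeks and more at 24 h and 1 week. Each ratio compares 1 library with 1 other, without replicates.

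Among all features tested, RBCS-2C lay toward the outer end of the side it took at 4 of the 5 times. Only at 0 h was it outside the range from the 5 to the 95 percentile. At 0 h 2.31% of features had a lower log2 ratio, and at 4 weeks 5.06% did. At 24 h 94.9% had a lower log2 ratio, and at 1 week 91.3% did. At 48 h, with 29.9% lower, it lay among the bulk. The root mean square of its 5 log2 ratios was 0.97, against a median of 0.45 over the 15617 features with a mean of at least 5 CPM, and 9.91% of these had a larger one.

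**Figure D3:**
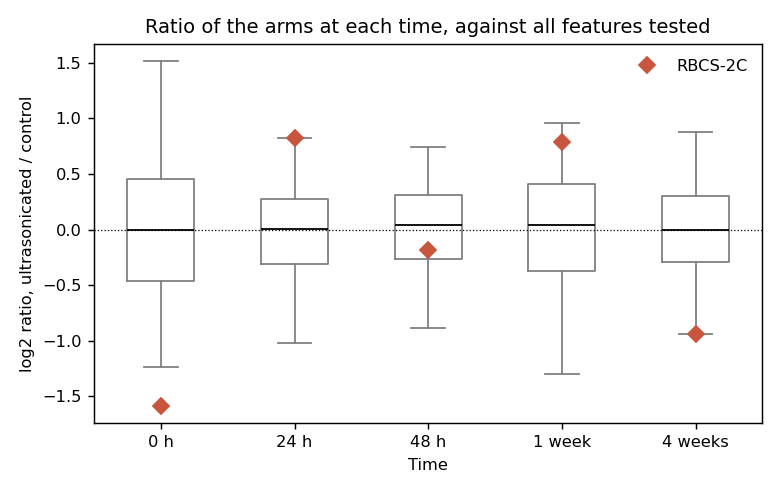
Log2 ratio of ultrasonicated over control at each time, for RBCS-2C (diamonds) and for all 24421 features tested (boxes from the 25 to the 75 percentile with the median, whiskers from the 5 to the 95 percentile). RBCS-2C lies below the lower whisker at 0 h (-1.58) and near the ends of the whiskers at 24 h (0.82) and 4 weeks (-0.94). At 1 week (0.79) it lies along the upper whisker, and at 48 h (-0.19) within the box.

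No effect common to the 5 times was detected. The log2 difference between arms, with time as a block, was -0.22 (SE 0.38, edgeR adjusted p = 0.999), and 2 of 5 pairs were higher and 3 lower. An exact two-sided permutation test that flips the signs of the 5 log2 ratios gave p = 0.625, where the smallest p it allows is 0.0625. Without the control library at 0 h the difference turned to 0.13 (edgeR adjusted p = 0.968), and without the ultrasonicated one to 0.13 (0.962). Over all features edgeR called 0, with 815 at an unadjusted p under 0.05, DESeq2 called 53 and limma-voom 0.

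Nor did the first 48 h differ by the test from 1 week and 4 weeks in the size of the effect. The log2 difference between arms at the later 2 times exceeded that at the earlier 3 by 0.23 (SE 0.823, edgeR adjusted p = 1). Both periods hold ratios of either sign. The difference turned negative in 6 of the 15 fits that left out a library or a pair, to -0.39 without the control library at 0 h and -0.64 without that at 1 week. Over all features edgeR called 0, with 1021 at an unadjusted p under 0.05, DESeq2 called 199 and limma-voom 0. A test of the effect at a single time against the others could not be made without assuming the others alike, since no arm has more than 1 library per time.

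The opposite signs appear in the arms' own courses. From 0 h to 1 week control explants went from 2063 to 962 CPM, 0.466 times (95% exact interval 0.463 to 0.469). Ultrasonicated explants went from 688 to 1661 CPM over the same span, 2.41-fold (2.39 to 2.44). From 0 h to 4 weeks control explants went to 0.636 times (0.632 to 0.639), and ultrasonicated explants to 0.993 times (0.983 to 1). That last ratio depends on the scaling, which was varied after the data were seen: it was 0.934 (95% exact interval 0.925 to 0.943) with median-ratio factors, 0.975 (0.965 to 0.984) with rRNA features left out, 1.2 (1.19 to 1.22) with upper-quartile factors and 1.64 (1.62 to 1.65) with total counts.

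The features whose profile was most like that of RBCS-2C were sought by Pearson's r of log2(CPM + 0.5) over the 10 libraries, which share their times in pairs. Over 15616 features the median r was 0.01, 25 features (0.16%) had r above 0.9 and 29 (0.186%) had r below -0.9. The highest, 0.978, belonged to PGSC0003DMG400023343 (chromosome 5, 51593223 to 51595954, minus strand). In control and ultrasonicated explants, in that order, it had 349 and 256 CPM at 0 h, 119 and 148 CPM at 24 h, 126 and 137 CPM at 48 h, 309 and 377 CPM at 1 week, and 303 and 218 CPM at 4 weeks. It shared the sign of the gap between arms with RBCS-2C at 0 h, 24 h, 1 week and 4 weeks, but not at 48 h. This feature was picked for its likeness over these same libraries, so the choice itself favours such a match.

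The next, with r = 0.95, was PGSC0003DMG400023461 (chromosome 5, 51592739 to 51595108, plus strand). These gene models overlap by 1886 bp on opposite strands, and the strand setting of the counting is not given in the sources used here, so their reads may not have been told apart. The first one's row carries the identifier of the second in its name column. The next feature outside this locus had r = 0.947. Neither gene model is given a function in the table.

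The profiles least like it ran in mirror image. PGSC0003DMG400001528 (chromosome 2, 38744461 to 38745679), with r = -0.95, stood between 332 and 554 CPM in the 4 libraries at 24 h and 48 h and between 18.3 and 43.5 CPM in the other 6. PGSC0003DMG400032228 (chromosome 1, 1566932 to 1568441), with r = -0.936, stood between 7.09 and 21.2 CPM in those 4 and between 0.344 and 2.87 CPM in the other 6. In both, the 4 libraries and the 6 did not overlap. They were picked for running against RBCS-2C, so the choice itself favours this separation. Over all features tested, 4.01% were higher in those 4 libraries than in the 6 others. The ranks of these features moved with the measure. By Spearman's rho PGSC0003DMG400023343 again ranked 1 and PGSC0003DMG400023461 ranked 49, and over the 5 control libraries alone they ranked 57 and 307 by Pearson's r. Counted from the lowest, PGSC0003DMG400001528 and PGSC0003DMG400032228 ranked 2 and 29 by Spearman's rho, and 293 and 66 over the control libraries.

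**Figure D4:**
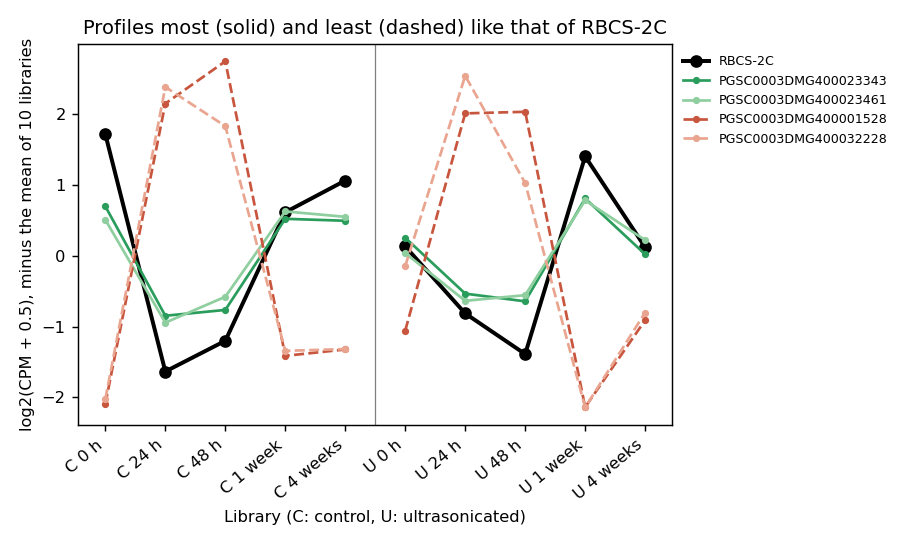
Log2(CPM + 0.5) of RBCS-2C and of the 2 features most like it (solid) and least like it (dashed), each minus its mean over the 10 libraries, with control libraries on the left and ultrasonicated ones on the right. The solid lines are low and the dashed lines high at 24 h and 48 h in both arms. RBCS-2C has the wider swing of the solid lines.

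Of the 22 gene models with a symbol, 16 others were abundant enough for this comparison, 7 with positive and 9 with negative r. METK1, an S-adenosylmethionine synthase, had the highest at 0.767, followed by EIF5A5, a translation factor, at 0.689. Among the 15616 features they ranked 337 and 703. The other EIF5A genes went either way, with r = 0.673 for EIF5A2, -0.548 for EIF5A4 and -0.601 for EIF5A3. METK1 was lowest at 24 h in both arms (188 CPM in control, 209.9 CPM after ultrasound) and, unlike RBCS-2C, highest at 4 weeks in both (1756 and 1920 CPM). EIF5A5 had its highest value at 4 weeks in control (1161 CPM) and at 0 h after ultrasound (1024 CPM).

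At the other end lay the starch synthases. WAXY, the granule-bound starch synthase that makes amylose, had r = -0.846, and SS2, a soluble starch synthase, had r = -0.807. Among the 15616 features they ranked 15492 and 15370 from the highest. Both were named for the lowest r among genes with a symbol, so the choice itself favours values opposed to those of RBCS-2C. WAXY stood at 155 and 220 CPM in control explants at 24 h and 48 h, where RBCS-2C was lowest, and at 16.3 CPM at 0 h. SS2 stood at 177 and 166 CPM in control explants at those times and at 69.9 CPM at 0 h. In ultrasonicated explants at 48 h WAXY had 73.9 CPM, below its 99.2 CPM at 4 weeks. SS2 had 87.8 CPM in the same library, below its 95 CPM at 0 h in that arm. The mirror image was thus less complete in ultrasonicated explants for both genes.

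Other genes of photosynthesis could not be set beside RBCS-2C. Of 22 Calvin cycle symbols and 12 symbols of the light reactions, 0 were found in the table, which describes no feature. Of 24 plastid gene names, 2 were found: ATPE, a subunit of the plastid ATP synthase, and RPOA, a subunit of the plastid RNA polymerase. Both are placed on nuclear chromosomes there, and their counts, 0 to 142 for ATPE and 47 to 270 for RPOA, are far below those of RBCS-2C.

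Within 50 kb of RBCS-2C on either side the table lists 4 features, none overlapping it and none named as a Rubisco gene, and all 4 passed the filter on low counts. The nearest before it, PGSC0003DMG400012667, lies 6313 bp away and had 0 to 61 counts, and the nearest after it, PGSC0003DMG400012651, lies 2270 bp away and had 3 to 169 counts. The most abundant of the 4, PGSC0003DMG400012652, had 2326 to 7886 counts (19.4 to 55.9 CPM), 3.97% as many as RBCS-2C over the 10 libraries. Among 32873 RefSeq genes of the SolTub_3.0 assembly, 3 carry a Rubisco small subunit name: RBCS1, 1 with the synonym rbcS2c, and 1 with the synonym RBCS-2B. Of the identifiers in the count table, 0 were found in RefSeq, and the treatment of reads that match several copies is not given in the sources used here. Values of RBCS-2C may therefore include or lack reads of its near-identical relatives.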

How the data were processed

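The authors deposited whole-number read counts per annotated feature, with 1 column per library and no normalization. Each column was matched to its sample by its label. Per the submitters' processing notes, HISAT2 2.1.0 was used, with FastQC 0.11.5 and Trim Galore 0.5.0. For the counting program, its strand setting and the genome build, the sources used here give nothing. Features were kept by filterByExpr on arm, which left 24421, and scaled by TMM in edgeR 4.0.16 (R 4.3.3). Models were fitted over the whole table, p-values were adjusted over all features tested, and standard errors are the log2 change divided by the root of F. Ratios of single libraries have exact 95% binomial intervals, which cover counting error only (SciPy 1.17.1). DESeq2 1.42.0 and limma-voom 3.58.1, other scalings (median-ratio, upper-quartile, total counts), other filters, rRNA features left out, and each library and each pair left out were the alternatives. The other scalings of ratios between times were added after the data were seen. Named features were the 2 highest and 2 lowest by r, also among genes with a symbol, and the nearest neighbours. The gene, the lists and the rules were chosen with earlier results of these data known. The third feature by r was looked up after the first 2 were seen to overlap, and the split of the 4 libraries at 24 h and 48 h from the other 6 was chosen after the values were seen.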

Additional observations from a re-analysis of the deposited data

Results flagged for a closer look

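The ratio of ultrasonicated over control RBCS-2C changed sign between times. The share of all features whose ratio did so is not given here, so the change of sign does not set this gene apart. Negative log2 ratios were found at 0 h (-1.58), 48 h (-0.19) and 4 weeks (-0.94), and positive ones at 24 h (0.82) and 1 week (0.79). The differences between single times were not tested, since each has 1 library per arm. TMM factors in the pair at 0 h were 0.885 in control and 0.688 in the ultrasonicated library, and rRNA shares in the pair at 24 h were 2.46% and 0.0706%. The part of either in these ratios was not tested.

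The arms also went opposite ways in 3 spans of time. From 0 h to 1 week the log2 change was -1.1 in control and 1.27 in ultrasonicated explants. From 24 h to 48 h it was 0.43 and -0.57. From 1 week to 4 weeks it was 0.45 and -1.28. These differences between arms were not tested.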

How the results depend on the processing

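Of 105 values of the RBCS-2C tests under other scalings, filters and tools, 96 kept their direction and their side of the threshold. With total counts the falls at 24 h (log2 -1.91) and 48 h (-1.95) kept their direction but no longer passed the threshold. DESeq2 added calls for 1 week against 24 h (2.21) and 48 h (2.37) and for 4 weeks against 24 h (1.75) and 48 h (1.91), and limma-voom for 1 week against 24 h (2.23). The difference of 1 week from 0 h, close to 0, turned to -0.0294 with median-ratio factors and -0.0295 with DESeq2.

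Leaving out 1 library or 1 pair gave these ranges of log2 change against 0 h: -3.02 to -1.25 at 24 h, -3.12 to -1.35 at 48 h, -0.83 to 0.98 at 1 week and -1.15 to 0.62 at 4 weeks. Against 24 h they were -0.73 to 0.65 at 48 h, 1.46 to 3.07 at 1 week and 1.14 to 2.52 at 4 weeks. Against 48 h they were 1.66 to 2.91 at 1 week and 1.42 to 2.32 at 4 weeks, and 4 weeks against 1 week gave -1.04 to 0.24. F over the times ran from 4.41 to 13.7, the ultrasound effect from -0.53 to 0.14, and late against early from -0.64 to 1.1. Where 1 library of a time was left out, the remaining one is assumed to vary like the others.

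Of the ratios between times within an arm, that of 4 weeks over 0 h after ultrasound changed direction, to 1.2 with upper-quartile factors and 1.64 with total counts, in scalings tried after the data were seen.

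The ratio of arms moved beyond its counting interval as follows. At 0 h it was 0.338 with median-ratio factors, 0.311 with upper-quartile factors and 0.259 with total counts, which move every log2 ratio at that time by -0.36. At 24 h it was 1.85 with total counts. At 48 h it was 0.833 (upper quartile), 0.842 (total counts) and 0.832 (rRNA left out). At 1 week it was 1.71 (median ratio), 1.74 (upper quartile), 1.62 (total counts) and 1.67 (rRNA left out). At 4 weeks it was 0.506, 0.528, 0.541 and 0.508 in the same order. Without time as a block the ultrasound effect was -0.41.

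Counts of called features changed by over 1.5 times with DESeq2, from 4859 to 7357 (24 h against 0 h), 5002 to 7522 (48 h against 0 h), 2858 to 5208 (4 weeks against 0 h), 1894 to 4382 (1 week against 24 h), 3380 to 6118 (4 weeks against 24 h), 316 to 2102 (1 week against 48 h), 2059 to 4607 (4 weeks against 48 h), 869 to 3523 (4 weeks against 1 week) and 6835 to 11654 (any time). With 1 library or pair left out, called features numbered 4019 to 7952 (any time), against 0 h 1282 to 4832 (24 h), 1373 to 4713 (48 h), 2406 to 6335 (1 week) and 921 to 3971 (4 weeks), against 24 h 0 to 0 (48 h), 46 to 3005 (1 week) and 80 to 4853 (4 weeks), against 48 h 0 to 789 (1 week) and 0 to 3460 (4 weeks), and 0 to 1761 for 4 weeks against 1 week. They stayed at 0 for the ultrasound effect and late against early. No paired analysis by replicate number was possible because each arm and time has 1 library.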
